A study of Homo sapiens with 6 samples.

Results

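The SOX transcription factors were followed in MDA-MB-231, a long-established line of human basal-type mammary carcinoma cells with mesenchymal features, through the 28 array probe sets whose single annotated gene symbol was SOX2, SOX4, SOX5, SOX7, SOX8, SOX9, SOX10, SOX12, SOX13 or SOX15. These 28 probe sets for 10 genes came from a table of 54675. Probe sets were taken by symbol, whatever their values. The line had been transduced with a lentivirus for GATA3 and enhanced GFP (3 arrays) or for enhanced GFP without GATA3 (3 arrays), and both populations had been sorted for GFP. All cells were otherwise untreated, were grown in medium with 10% serum, and gave RNA 2 days after seeding. The design text speaks of samples in triplicate and the labels name no separate cultures, so p-values here reflect array-to-array scatter that may be technical only. The viral promoter is not given in the sources used here.

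SOX proteins bind the minor groove of DNA through a high-mobility-group box and bend it, and they are sorted into groups by the likeness of that box. They act with partner factors to hold or change cell identity. SOX2 is a pluripotency factor, SOX9 is known from cartilage and from mammary stem and luminal progenitor cells, and SOX10 from the neural crest. SOX4 is known from breast cancer as a factor of the TGF-beta response and of mesenchymal change. The group members were SOX2 (SOXB1), SOX4 and SOX12 (SOXC), SOX5 and SOX13 (SOXD), SOX8, SOX9 and SOX10 (SOXE), SOX7 (SOXF) and SOX15 (SOXG).

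Values are expression values made with GCRMA and are read as log2. GCRMA models each probe's background from its bases and leaves many probe sets without signal at a floor, 2.16 on every array here. Other probe sets repeated a value of their own, some above 4, and 1856 of the tested ones (7.80%) held 1 value on 3 or more arrays. A repeated value measures no difference between those arrays. A value of 4 was used as a working detection level, so lying over it does not by itself show that a transcript was present. A probe set was tested if at least 3 of the 6 arrays lay over 4. Levels of different probe sets are not on one scale and are not compared with each other. Every change runs as GATA3 minus GFP control. Its direction rests on the labels alone, since GATA3 itself read 7.93, 7.94 and 7.32 in the arrays labelled GATA3, against 9.37, 9.35 and 9.45 in the GFP control arrays (209604_s_at). That is lower by a log2 change of -1.66 (SE 0.18, adjusted p 0.00238), against the label, and probe sequences that could tell introduced from native transcript were not used here. LOX, which encodes the lysyl oxidase named in the title of the study, changed by -5.80 (SE 0.36, adjusted p 0.000326).

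The 3 GFP control arrays correlated at 0.995 to 0.996 and GATA3 replicates 1 and 2 at 0.997, while GATA3 replicate 3 correlated with those 2 at 0.984 to 0.986. Its 75th percentile was 7.78, against 7.97 to 8.04 on the other arrays, and its raw-file name alone carries a later date. Results that rest on it are given with and without it. The cells carried the markers of the line: VIM, CD44, ZEB1, KRT8, KRT18, EGFR and CAV1, 7 of 7, lay over 4. Their summed level was 91.22 to 91.51 on the arrays labelled GATA3 and 92.40 to 92.58 on the GFP control arrays. Within it ZEB1, which represses epithelial genes, had a log2 change of -1.92 (adjusted p 1.64e-05), the largest of the 7. The keratin genes KRT8 (0.60, adjusted p 0.00908) and KRT18 (0.52, adjusted p 0.000503) rose. EGFR was also higher (0.33, adjusted p 0.0278) and VIM lower (-0.32, adjusted p 0.0158), while CD44 (-0.07) and CAV1 (-0.22) did not pass. The markers of the line thus went both ways, 3 higher and 2 lower. The 6 luminal markers summed to 32.62 to 32.86 on the arrays labelled GATA3 and to 31.67 to 31.86 on the GFP control arrays, with KRT19 higher by 1.08 (adjusted p 0.00110). PGR, FOXA1 and TFF1 did not lie over 4, and ESR1 (4.02 on 5 arrays) and SPDEF (7.65 on 4 arrays) stood at a repeated value. These marker shifts moved with the SOX4 and mammary progenitor results, and their part in them was not tested. None of the 5 blood cell markers, 4 endothelial, 3 neural crest or melanocyte and 4 cartilage markers with a probe set lay over 4.

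SOX13 was the member gene that rose, SOX4 fell by one of its probe sets, and SOX9 stayed within a narrow interval at high values in all 6 arrays. That SOX4 probe set was tested through its GFP control arrays alone. The brighter tested SOX4 probe set did not pass the threshold (-0.03, adjusted p 0.964 by limma). SOX2, SOX5, SOX7, SOX8 and SOX10 lay under the detection level in every array, so no difference was detectable for them. Before the values, the promoters of SOX13 and SOX4, the 2 genes with a probe set past the threshold, are shown. They are the 250 bases before the start site in RefSeq, build GRCh38.p14, read 5′ to 3′ on the strand of the gene. The SOX13 sequence is at chr1:204072865-204073114 and the SOX4 sequence at chr6:21593501-21593750, both on the + strand. Capitals mark a match to GATAA, a core of the sequence that GATA factors bind.
SOX13: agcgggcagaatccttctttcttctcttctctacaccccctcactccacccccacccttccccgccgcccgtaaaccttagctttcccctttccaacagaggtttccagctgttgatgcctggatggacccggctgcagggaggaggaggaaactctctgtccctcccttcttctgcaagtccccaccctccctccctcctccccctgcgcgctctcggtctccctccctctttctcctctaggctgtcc
SOX4: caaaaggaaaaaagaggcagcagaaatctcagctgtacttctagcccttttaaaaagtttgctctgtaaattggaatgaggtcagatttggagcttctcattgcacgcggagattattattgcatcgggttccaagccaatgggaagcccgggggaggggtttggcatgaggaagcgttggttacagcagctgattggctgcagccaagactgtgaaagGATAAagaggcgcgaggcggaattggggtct
The SOX4 sequence held 1 GATAA, ending 27 bases before the start site, and the SOX13 sequence held 0. GATAA was searched on both strands and was found in 20.4% of 35116 such promoter windows. The longer forms AGATAA or AGATAG or TGATAA or TGATAG, which overlap with GATAA, were together in 22.3% of the windows and in 0 of the 5 found for the SOX genes (SOX2, SOX4, SOX5, SOX12 and SOX13). ACAAAG, a sequence that SOX factors bind, was found once before SOX2 and in 13.7% of all windows. ACAAT, another such core, was found 2 times in the SOX5 window and in 24.6% of all windows. That window, chr12:24562492-24562741 on the - strand, lies in part inside the SOX5 gene, which is annotated up to 24562650. The windows of SOX4 and SOX13 held 48.8% and 60.8% G and C, against a median of 58.0% over all windows. These matches are a description of the letters.

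**Figure D1:**
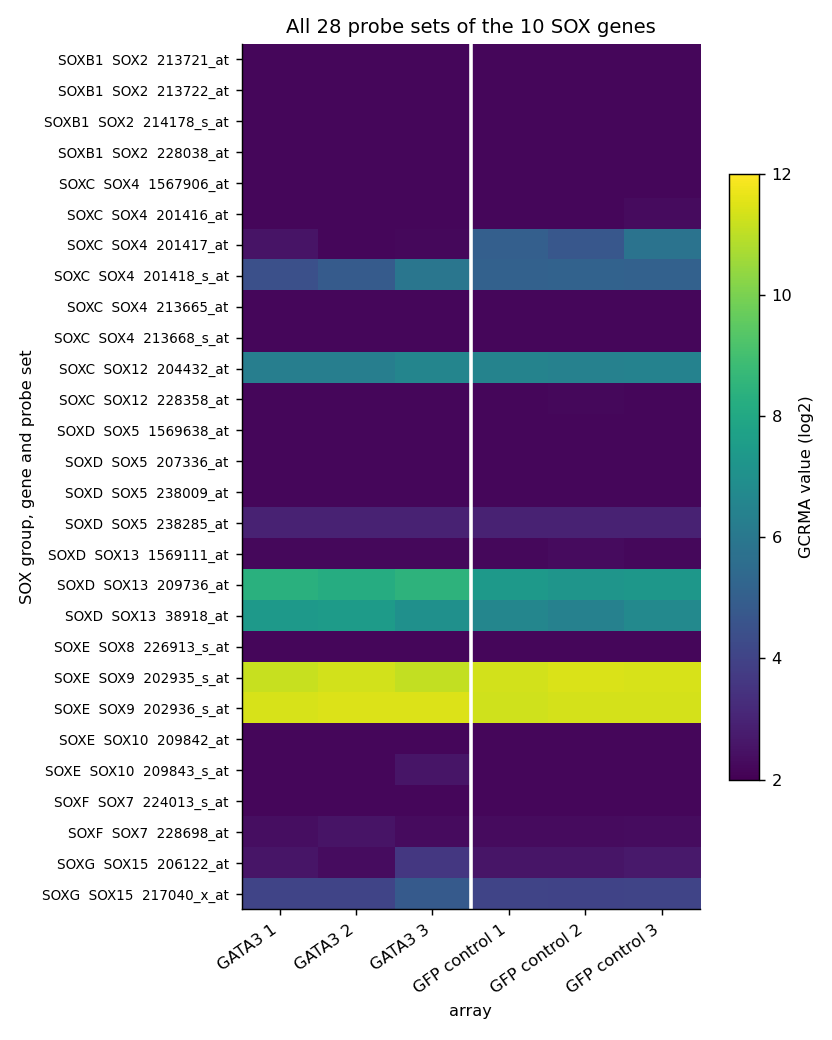
Each row is 1 of the 28 probe sets of the SOX genes, ordered by SOX group, and each column 1 array, with the 3 GATA3 arrays left of the 3 GFP control arrays. Colour gives the GCRMA value on the log2 scale. A reader should see 20 dark rows that never lie over 4, bright SOX9 in all arrays, SOX13 brighter in the GATA3 arrays, and SOX4 probe set 201417_at dark in them.

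SOX13 is a factor of the SOXD group, which lacks an activation domain of its own, and is known in mouse from the gamma-delta T cell lineage and as a partner of TCF proteins in the Wnt pathway. Probe set 209736_at read 8.33, 8.20 and 8.45 in the arrays labelled GATA3, against 7.39, 7.21 and 7.31 in the GFP control arrays. Every GATA3 array lay above every GFP control array, as groups without overlap did in 46.0% of all tested probe sets in either direction. The means were 8.33 ± 0.12 and 7.30 ± 0.09 (SD, n = 3 each). SOX13 rose by a log2 change of 1.03 (SE 0.09), 2.04-fold, with an adjusted p of 0.00125 by limma. This change was larger in size than that of 92.4% of the tested probe sets. Without GATA3 replicate 3 it was 0.97 (adjusted p 0.00253).

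The other tested SOX13 probe set, 38918_at, pointed the same way with less certainty. It read 7.38, 7.48 and 7.02 in the arrays labelled GATA3, against 6.59, 6.41 and 6.70 in the GFP control arrays. The groups did not overlap, and GATA3 replicate 3 was the lowest of its group. The log2 change was 0.73 (SE 0.15, 95% interval 0.35 to 1.10, adjusted p 0.0209). The call was lost when any 1 array other than GATA3 replicate 3 was left out (adjusted p 0.0524 to 0.0767), and without GATA3 replicate 3 the change was 0.87 (adjusted p 0.00676). The call was also lost with the replicate number as a block (adjusted p 0.0799) and without a filter on low values (adjusted p 0.0785). The remaining probe set, 1569111_at, read 2.20 on 5 arrays and 2.29 on GFP control replicate 2.

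The other SOXD genes gave no call. SOX5, which works with SOX9 in cartilage, had 4 probe sets. Of these 3 stood at the lowest value on all arrays and the other read 2.97 on all 6. SOX6, the closest relative of SOX5 and not one of the 10 genes, had 8 probe sets, of which 235526_at alone was tested. It read 6.68, 6.32 and 5.63 in the arrays labelled GATA3, against 6.88, 7.13 and 7.22 in the GFP control arrays. The groups did not overlap, and GATA3 replicate 3 was lowest. For SOX6 the log2 change was -0.87 (SE 0.28) and did not pass the threshold (adjusted p 0.0757). Without GATA3 replicate 3 it was -0.58 (adjusted p 0.0578), and without GATA3 replicate 1 it was -1.10 (adjusted p 0.0439). It passed after quantile normalization (-0.80, adjusted p 0.0289) and after median centring (-0.79, adjusted p 0.0238). The 7 other SOX6 probe sets lay near the lowest value, so this single probe set is the whole evidence for SOX6.

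SOX4, a SOXC factor of neurons, lymphocytes and many carcinomas, gave probe sets that disagreed. Probe set 201417_at read 2.54, 2.16 and 2.23 in the arrays labelled GATA3, against 5.01, 4.70 and 5.81 in the GFP control arrays. All 3 GATA3 arrays lay under the detection level and all 3 GFP control arrays over it. SOX4 fell by this probe set, at least 2.25-fold, the GFP control mean against the detection level. The fitted log2 change was -2.86 (SE 0.30, adjusted p 0.00191) and is uncertain in size because 1 side was not detected. The probe set entered the test only through its GFP control arrays, so that it differed is in part a consequence of the filter. Without that filter the adjusted p was 0.0144, and without any 1 array it was 0.00231 to 0.0131.

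The second tested SOX4 probe set, 201418_s_at, did not pass the threshold. It read 4.44, 4.87 and 5.94 in the arrays labelled GATA3, against 5.10, 5.14 and 5.10 in the GFP control arrays. GATA3 replicates 1 and 2 lay below all GFP control arrays and replicate 3 above all of them. Its log2 change was -0.03 (SE 0.38, 95% interval -0.98 to 0.91, adjusted p 0.964). Without GATA3 replicate 3 it was -0.46 (adjusted p 0.0703), and without GATA3 replicate 1 it was 0.29 (adjusted p 0.542). GFP control replicates 1 and 3 carried the same value. The sign of this small difference turned under both other scalings. The 4 other SOX4 probe sets stood at the lowest value, except 1 reading of 2.28 for 201416_at on GFP control replicate 3.

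SOX12, the other SOXC gene followed here, did not pass the threshold. Its tested probe set 204432_at read 6.28, 6.28 and 6.57 in the arrays labelled GATA3, against 6.48, 6.38 and 6.44 in the GFP control arrays. The groups overlapped, with GATA3 replicate 3 the highest of the 6 arrays and the other two GATA3 arrays the lowest. For SOX12 the change was -0.06 on the log2 scale (SE 0.11, 95% interval -0.32 to 0.20, adjusted p 0.705), and -0.15 (adjusted p 0.114) without GATA3 replicate 3. Its sign turned under both other scalings. The other probe set, 228358_at, lay near the lowest value, at 2.16 to 2.23.

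**Figure D2:**
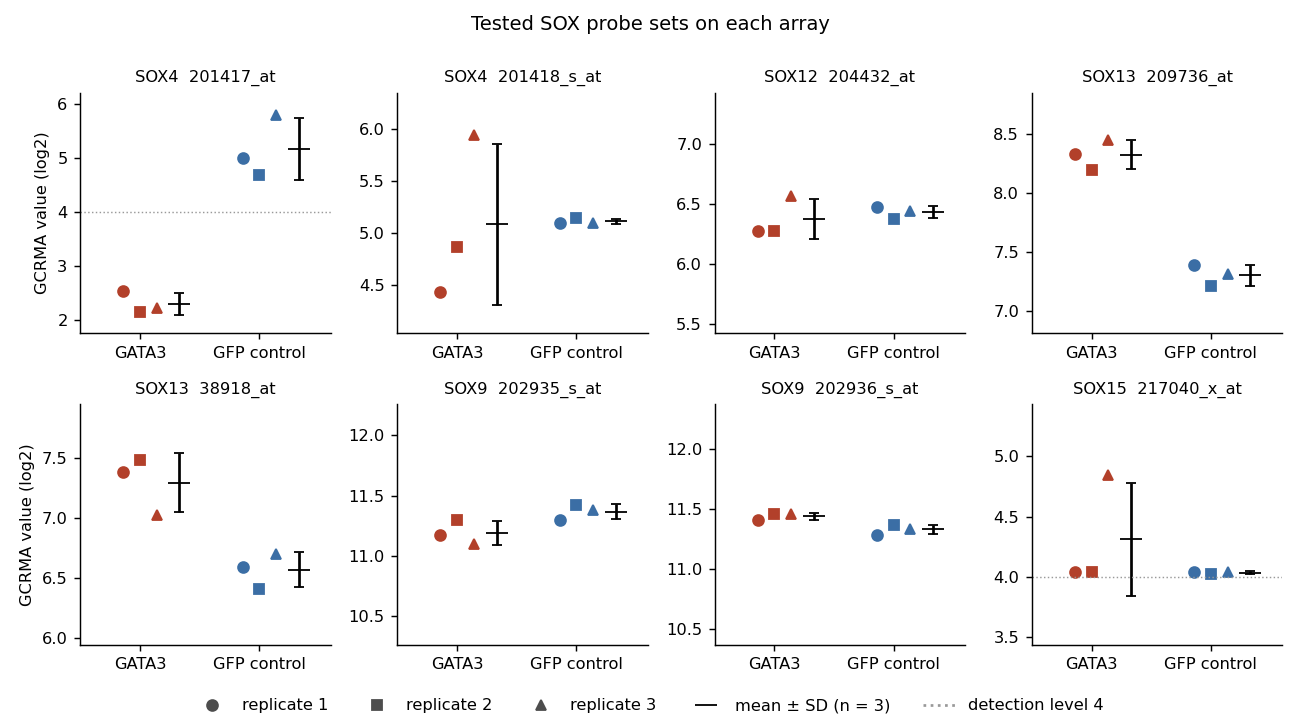
GCRMA values (log2) of the 8 tested probe sets of the SOX genes, 1 panel each, with GATA3 arrays left and GFP control arrays right. Points are arrays, with a shape for each replicate number, bars are mean ± SD (n = 3), the dotted line is the detection level of 4, and each panel has its own axis range. SOX13 is separated upwards in both its panels and SOX4 201417_at downwards, while GATA3 replicate 3 stands alone at the top for SOX4 201418_s_at and SOX15.

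SOX9, the SOXE factor of cartilage and of mammary progenitors, was read by 2 probe sets that leaned to opposite sides. Probe set 202936_s_at read 11.41, 11.46 and 11.46 in the arrays labelled GATA3, against 11.29, 11.37 and 11.34 in the GFP control arrays. The groups did not overlap, by a small margin. The log2 change was 0.11 (SE 0.04, 95% interval 0.01 to 0.21), with an adjusted p of 0.0926 and an unadjusted p of 0.0309. Probe set 202935_s_at read 11.17, 11.30 and 11.10 in the arrays labelled GATA3, against 11.30, 11.42 and 11.38 in the GFP control arrays. Here GATA3 arrays were lower or level with the lowest GFP control array. The log2 change was -0.18 (SE 0.06, 95% interval -0.34 to -0.01), with an adjusted p of 0.106 and an unadjusted p of 0.0378. Both intervals lie within -0.34 to 0.21 on the log2 scale, and neither probe set passed the threshold. The mean of both changed by -0.03 (adjusted p 0.628). With array weights, 202936_s_at passed (0.12, adjusted p 0.0121), the only 1 of 13 alternatives in which it did. The fit of those weights stopped before convergence. It gave GATA3 replicate 2 a weight of 11.84 and GATA3 replicate 3 a weight of 0.1248.

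The other SOXE genes were not detected. The 1 probe set of SOX8, known from glia and testis, stood at the lowest value on all arrays. SOX10, a neural crest factor that also marks basal-like breast tumours and myoepithelial cells, was at 2.16 to 2.17 by both its probe sets on every array but one. That exception was 209843_s_at on GATA3 replicate 3, at 2.55, still far under the detection level. SOX2, of the SOXB1 group, stood at the lowest value in all 4 probe sets on all 6 arrays. SOX7, an endothelial SOXF factor, read 2.30 to 2.53 by 228698_at and 2.17 on all arrays by 224013_s_at. These readings hold no usable difference between the groups, and a transcript below detection may still be present.

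SOX15, the SOXG gene, known in mouse from muscle regeneration and trophoblast giant cells, was set by 1 array. Probe set 217040_x_at read 4.04, 4.04 and 4.85 in the arrays labelled GATA3, against 4.04, 4.02 and 4.04 in the GFP control arrays. Its reading was the same on 3 arrays, and GATA3 replicate 3 alone lay clearly above. SOX15 had a log2 change of 0.27 (SE 0.23, adjusted p 0.422), and 0.00 (adjusted p 0.975) without GATA3 replicate 3. The suffix of this probe set stands for probes that can also read other transcripts. The other probe set, 206122_at, was under the detection level and also highest on GATA3 replicate 3, at 3.64, against 2.32 to 2.69 on the other arrays. GATA3 replicate 3 was the highest array for 4 of the 8 tested SOX probe sets, and for 15.4% of all tested probe sets.

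In all, 8 of the 28 probe sets were tested, for 5 of the 10 genes. Of 19775 genes with a single-symbol probe set, 10814 were tested (54.7%). The groups did not overlap in 4 of the 8, near the 46.0% over all tested probe sets. Among these 4, SOX4 201417_at entered the test through the GFP control arrays alone, so its groups could not overlap. Of the 8, 3 passed the threshold of an adjusted p under 0.05, SOX13 higher by both and SOX4 lower by 1. Of all 23785 tested probe sets 25.3% passed, 11.3% higher and 14.0% lower. With 1 probe set per gene, the brightest, 1 of 5 SOX genes was higher and 0 lower by limma, against 29.3% of 10814 genes in either direction. At an unadjusted p under 0.05, 2 of the 5 genes were higher (SOX13 and SOX9) and 0 lower, against 20.1% and 22.5% of all tested genes. For SOX9 the other probe set passed the same unadjusted level in the opposite direction (-0.18, p 0.0378). The median change was 0.11 over the 5 genes and -0.02 over all tested genes. The share of SOX genes called lies near the share of all genes.

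**Figure D3:**
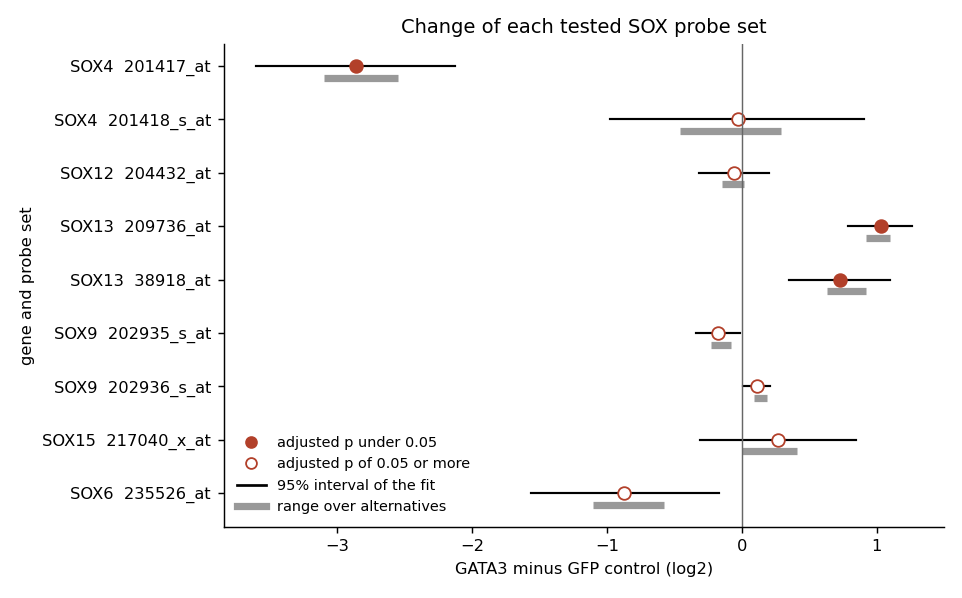
The x axis is the difference of GATA3 minus GFP control (log2) for each tested SOX probe set and for SOX6, 1 row each. Filled points passed an adjusted p of 0.05, black lines are 95% intervals of the limma fit, and grey bars are the range over the alternative settings. SOX13 lies to the right of 0 and SOX4 201417_at to the left over their whole ranges, whereas the range of SOX4 201418_s_at and SOX12 crosses 0. SOX4 201417_at entered the test through the GFP control arrays alone, so its side of 0 adds no separate support.

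The genes whose 6 values, each minus its own mean, lay nearest to those of SOX13 209736_at were ATXN1-AS1 (distance 0.10 on the log2 scale), SCARA3 (0.119) and HBEGF (0.161), out of the tested genes with 1 probe set each. ATXN1-AS1 is a long non-coding RNA, SCARA3 a scavenger receptor of oxidative stress, and HBEGF a ligand of the epidermal growth factor receptor. HBEGF read 12.18, 12.14 and 12.23 in the arrays labelled GATA3, against 11.12, 11.04 and 11.10 in the GFP control arrays, a log2 change of 1.10 (adjusted p 5.44e-05). SCARA3 changed by 1.03 (adjusted p 0.00122) and ATXN1-AS1 by 1.02 (adjusted p 0.00138). Over 6 arrays of 2 groups, such nearness describes a step between the groups of the same size and no more.

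Genes that SOX factors act with or on were read next, from lists set up by role, with earlier results of these data known. They are read with 1 probe set per gene, against 14.8% of all tested genes called higher and 14.5% lower. Among SOX importins, stability factors and partners, 11 of 19 were tested, 1 rose, 3 fell and 7 did not pass, with a median of -0.14. TCF7L2, a partner of beta-catenin in Wnt signalling, read 10.03, 10.08 and 9.69 in the arrays labelled GATA3, against 10.85, 10.89 and 11.03 in the GFP control arrays. It fell by 0.99 on the log2 scale (SE 0.12, adjusted p 0.00308), and its 6 other tested probe sets fell as well. Of these 6, 1 entered the test through the GFP control arrays alone and adds no separate support. The corepressor gene CTBP2 (-0.61, adjusted p 0.0145) and the importin gene IPO5 (-0.57, adjusted p 0.00202) fell. The mediator subunit gene MED12 rose by 0.43 (adjusted p 0.0214), but its 2 other tested probe sets did not pass (0.36 and 0.12) and its call was lost in 5 of 13 alternatives (adjusted p up to 0.0779). The call of the brightest CTBP2 probe set was lost in 3 of 13 (adjusted p up to 0.0687). KPNB1, an importin that carries SOX proteins into the nucleus, had a change of -0.10 (adjusted p 0.123), and CTNNB1, beta-catenin itself, -0.40 (adjusted p 0.161).

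The list around SOX4 in the TGF-beta response and neurons was measured in full, 14 of 14, with 5 lower, 1 higher and 8 not past the threshold (median -0.13). SEMA3C, a secreted semaphorin reported as a SOX4 target, read 10.03, 10.14 and 10.15 in the arrays labelled GATA3, against 11.51, 11.61 and 11.76 in the GFP control arrays. The groups were far apart. SEMA3C fell by 1.52 on the log2 scale (SE 0.08, adjusted p 0.000141), 2.86-fold, and 3.03-fold by its other probe set. TGFBR1, a TGF-beta receptor, fell by 0.75 (adjusted p 0.00471) and SMAD3, which carries its signal to the nucleus, by 0.57 (adjusted p 0.00470). EZH2, a histone methyltransferase reported as a SOX4 target, fell by 0.29 (adjusted p 0.0265), a call lost in 6 of 13 alternatives (adjusted p up to 0.0950). TGFBR2, the other TGF-beta receptor, rose by 0.23 (adjusted p 0.0255). Its call was lost without GATA3 replicate 1 or 2, without GFP control replicate 2 or 3 (adjusted p 0.0607 to 0.0916) and without a filter on low values (adjusted p 0.0762). SNAI2, a mesenchymal repressor, had a change of -0.16 (adjusted p 0.231), and CDH2 held 4.10 on 5 arrays, a repeated value.

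Of 15 mammary stem and luminal progenitor genes reported with SOX9, 9 were tested, 5 rose, none fell and 4 did not pass (median 0.41). Of all tested genes, 14.8% were called higher and 14.5% lower. HEY1, a target of Notch signalling, read 7.03, 6.96 and 6.35 in the arrays labelled GATA3, against 3.03, 2.96 and 2.96 in the GFP control arrays. It rose at least 6.85-fold (adjusted p 0.000139). The basal keratin gene KRT14 rose at least 7.25-fold (adjusted p 6.17e-05). Both entered the test through the GATA3 arrays alone, with no GFP control array over 4. KRT14 and HEY1 could thus only rise, and their part in the count of 5 is a consequence of the filter. ALDH1A3, the aldehyde dehydrogenase behind a stem cell assay, read 8.71, 8.65 and 8.32 in the arrays labelled GATA3, against 6.80, 6.23 and 6.91 in the GFP control arrays. It rose 3.76-fold (log2 change 1.91, SE 0.21, adjusted p 0.00249). KRT15 rose by 0.88 (adjusted p 0.00225). PROCR, a marker of mammary stem cells in mouse, had a change of 0.23 (adjusted p 0.0872).

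Of 16 neural crest, glial and melanocyte genes known with SOX10, 6 were tested, 3 rose, 1 fell and 2 did not pass (median 0.55). EDNRB, the endothelin receptor of migrating neural crest cells, read 6.11, 5.81 and 5.67 in the arrays labelled GATA3, against 9.15, 9.28 and 9.34 in the GFP control arrays. It fell by 3.40 on the log2 scale (SE 0.13, adjusted p 6.44e-05), 10.5-fold. Its second tested probe set, at least 2.76-fold lower, entered the test through the GFP control arrays alone and adds no separate support. ERBB3, a receptor that SOX10 controls in Schwann cells, rose by 2.90 (adjusted p 0.000401). ERBB3 read 4.36, 4.32 and 4.32 in the GFP control arrays, just over the detection level, so the size of its rise is uncertain. Of its 2 other tested probe sets, 1 held 4.70 on 5 arrays and is uninformative, and 1 was at least 4.75-fold higher, having entered the test through the GATA3 arrays alone. TFAP2A, a factor of neural crest and mammary epithelium, rose by 0.81 (adjusted p 0.00627), but its other tested probe set did not pass (0.46, adjusted p 0.255). MIA rose by 0.95 (adjusted p 0.0259), a call lost in 6 of 13 alternatives (adjusted p up to 0.111). MIA read 4.54, 4.54 and 3.91 in the GFP control arrays, near the detection level, so the size of its rise is uncertain. The members that moved thus went both ways, with SOX10 itself undetected. The summed level of 3 neural crest and melanocyte markers (PMEL, TYR and MLANA) was 6.72 on the arrays labelled GATA3 and 6.70 to 6.75 on the GFP control arrays, with none over the detection level.

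Of 15 cartilage genes bound by SOX9 and SOX5, 4 were tested, 1 fell and 3 did not pass (median 0.11). COL27A1, a fibrillar collagen chain of cartilage, read 5.05, 4.62 and 4.83 in the arrays labelled GATA3, against 7.11, 7.27 and 7.01 in the GFP control arrays. It fell by 2.29 on the log2 scale (SE 0.14, adjusted p 0.000256). Of its 2 other tested probe sets, 1 was at least 4.76-fold lower, having entered the test through the GFP control arrays alone. The other stood at the same value, 5.12, on 4 arrays and is uninformative. The cartilage markers COL2A1, ACAN, COL9A1 and COMP summed to 8.78 on every array, none over the detection level.

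Of 12 endothelial genes known with SOXF factors, 5 were tested, 3 fell, none rose and 2 did not pass (median -0.42). ESAM, an endothelial adhesion molecule, read 6.54, 6.52 and 6.14 in the arrays labelled GATA3, against 8.64, 8.58 and 8.45 in the GFP control arrays. ESAM fell by 2.15 on the log2 scale (SE 0.13, adjusted p 0.000310), 4.44-fold. ROBO4, an endothelial guidance receptor, fell 4.39-fold (adjusted p 0.000224). Its other tested probe set held 5.29 on 4 arrays and is uninformative. EFNB2, the ligand of arterial endothelium, fell by 0.42 (adjusted p 0.0112), a call lost with the replicate number as a block (adjusted p 0.0580). The endothelial markers PECAM1, CDH5, VWF and KDR summed to 8.68 on the arrays labelled GATA3 and to 8.68 to 8.70 on the GFP control arrays, with none over the detection level, as with SOX7.

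Of 13 pluripotency genes that work with SOX2, 2 were tested. MYC fell by 0.30 on the log2 scale (SE 0.05, adjusted p 0.00975), a call lost after median centring (-0.22, adjusted p 0.121). KLF4 had a change of 0.03 (adjusted p 0.599). Of 9 other SOX genes (SOX1, SOX3, SOX6, SOX11, SOX14, SOX17, SOX18, SOX21 and SOX30), SOX6 alone was tested. The other 22 of their 23 probe sets reached at most 2.33.

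**Figure D4:**
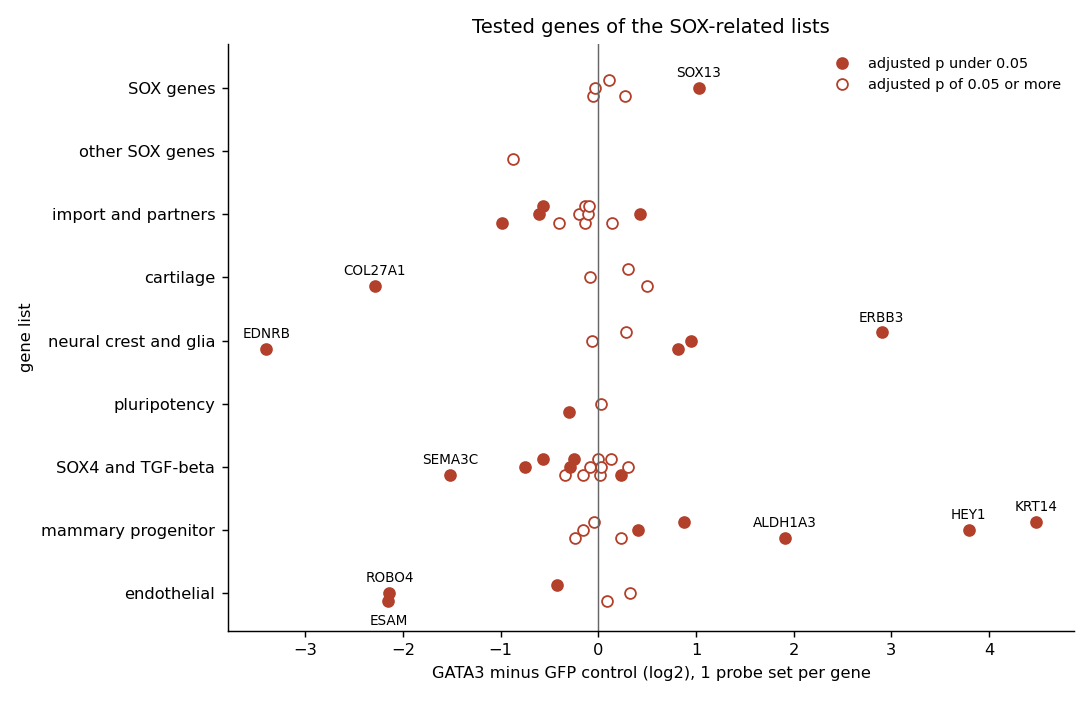
Each point is a tested gene, by its brightest tested probe set, and each row a gene list, with the difference of GATA3 minus GFP control (log2) on the x axis. Filled points passed an adjusted p of 0.05, and genes of at least 1 on the log2 scale among them are named. KRT14 and HEY1 lie far to the right, but only lower bounds of 7.25-fold and 6.85-fold hold for them because no GFP control array was over 4. EDNRB lies far to the left, and SOX13 is the filled point among the SOX genes.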

How the data were processed

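Total RNA of MDA-MB-231 cells (3 arrays labelled GATA3, 3 GFP control) was biotin-labelled and hybridised to single-colour arrays, per the labels' protocols. The deposited values, read as log2 from their range since no source states the scale, came out of GCRMA as the authors ran it, per the submitters' processing notes, without a version. No further scaling was applied. The number of arrays, 3 per group, bounds the precision.

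Control probe sets (62) were dropped. Of 54613 others, 23785 lay over 4 in at least 3 arrays and were tested with limma (version 3.58.1 in R 4.3.3), by lmFit and eBayes (trend on mean level, no covariate), two-sided, adjusted by Benjamini-Hochberg over all tested, threshold 0.05. Symbols came from the platform annotation (41091 probe sets with 1 symbol, 1801 with several, 11721 with none). For all 28 SOX probe sets the current gene table gave the same symbol. In lists, a gene stood by the brightest of its tested probe sets. Named were all SOX probe sets, up to 4 called genes per list by size of change, and the 3 nearest patterns per called SOX gene. KPNB1, CTNNB1, TGFBR2, SNAI2, CDH2, PROCR, KLF4, ZEB1, KRT8, KRT18 and KRT19 were named after their values were seen. The changes of VIM, EGFR, CD44 and CAV1 complete the marker list and were not followed under the alternatives. Members and lists were chosen with earlier results of these data known. The fit was tested on simulated data. Alternatives tried were the replicate block, other filters, scalings, variance models and probe set choices, and each array left out.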

Additional observations from a re-analysis of the deposited data

How the results depend on the processing

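SOX13 209736_at kept its direction and call under every alternative in which it was fitted, with log2 changes of 0.92 to 1.10. SOX4 201417_at also did where it was fitted, with -3.10 to -2.55 (it did not enter the filter at 5). It entered the test through the GFP control arrays alone, so its kept direction adds no separate support. Without a filter on low values its adjusted p was 0.0144 by limma. The number of SOX probe sets higher was 1 with the replicate block and 1 without a filter on low values, and 1 to 2 with 1 array left out, since the call of SOX13 38918_at was lost there. The number lower was 0 under the filter at 5. Counted by gene, 2 SOX genes were higher with array weights, and 1 was lower with the mean of all tested probe sets or with the suffix _at alone, both through SOX4, whose 201417_at entered the test through the GFP control arrays alone. Changes near 0 turned sign: SOX4 201418_s_at to 0.05 and 0.03 and SOX12 to 0.02 and 0.01 (median centring and quantile normalization), SOX4 201418_s_at over -0.46 to 0.29 with 1 array left out, and SOX9 to -0.03 as the mean of its probe sets. Over all tested probe sets, 2698 were higher and 3329 lower, against 2022 and 2106 with the replicate block, 1846 and 1767 without a filter, and 5195 and 6642 with array weights, whose fit stopped before convergence. With 1 array left out they were 1796 to 3581 and 1801 to 3752. Leaving out GATA3 replicate 3 gave the highest of these counts. The cause was not tested. No pairing of the arrays by replicate number was seen. Deviations from the group means correlated at -0.135, 0.159 and -0.109 for same-numbered arrays, and at -0.253 to 0.228 for the others. With 3 arrays per group this cannot exclude a pairing. Of 21 named list genes, CTBP2, EFNB2, EZH2, MED12, MIA and MYC lost their call under at least 1 alternative, as did TGFBR2, which was named after its values were seen. Of 240 list counts under alternatives 207 stayed within 1.5 times the count given. These include many counts of 0 that stayed at 0, which say little of how the other counts held. Readings under 4 limit what can be said of 5 of the 10 SOX genes.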
